A study of Mus musculus with 18 samples.

Results

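The nuclear genes of the mitochondrial respiratory chain and ATP synthase were followed while mouse embryonic stem cells turned into heart muscle cells. Members were all genes whose symbol began with Nduf, Uqcr, Atp5 or Cox followed by 4 to 8, together with Sdha to Sdhd and Cycs, each read from its brightest probe set that named a single gene. The rule gave 91 genes of 18193 on the array: 36 complex I subunits, 8 complex I assembly factors (Ndufaf), 4 complex II subunits, 8 complex III subunits, 17 complex IV genes, 17 ATP synthase genes and cytochrome c. A gene was tested when its signal reached 22.5, the median of all deposited values, on at least 2 arrays, and 87 of the 91 members met this. The other 4 (Cox4i2, Cox7b2, Cox8b and Ndufb4) did not, so counts below are out of 87. Classes were set by symbol, so Ndufa4, now placed in complex IV, and its relative Ndufa4l2 are counted under complex I.

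The respiratory chain sits in the inner mitochondrial membrane and carries electrons from NADH (complex I) and succinate (complex II) through complex III and cytochrome c to oxygen at complex IV, pumping protons on the way. ATP synthase makes ATP as the protons flow back. Beating heart muscle depends on this pathway for most of its ATP, and several small subunits of complex IV come in a form found in many tissues and a form typical of heart and skeletal muscle.

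All cells came from the D3 mouse embryonic stem cell line, differentiated as embryoid bodies from hanging drops in medium with ascorbic acid. In a line carrying GFP behind an Nkx2-5 enhancer and the minimal hsp68 promoter, embryoid bodies were dissociated on day 5, 6, 7 or 8 and sorted into GFP-positive and GFP-negative cells, with 2 batches for each of the 8 groups. The remaining group, 2 arrays, was cardiomyocytes from a line in which the alpha-MHC (Myh6) promoter drives neomycin resistance, selected with G418, and the labels used here give them no day and no batch. Line, drug selection and age of culture therefore cannot be told apart from cell type in any comparison with them. The batches differed in cardiac marker level: Myh6 signal in day 5 and 6 GFP-positive cells was 729.5 and 1077.9 in batch 1 but 19.5 and 37.3 in batch 2. Summed signals of 12 cardiomyocyte markers were 69765.9 to 69879.1 in selected cardiomyocytes, 15017.4 to 25240.6 in GFP-positive cells of days 7 and 8, and 2705.2 to 8145.6 in GFP-negative cells of those days. Singly, 4 of the 12 were called higher in selected cardiomyocytes than in those GFP-positive cells (limma, adjusted p under 0.05). Against those GFP-negative cells 9 of the 12 were, and none was called lower in either comparison. RNA was measured in bulk, so fewer cells of a type and less RNA per cell cannot be told apart. Replicates of the sorted groups are labelled as batches, whereas the labels do not say whether the cardiomyocyte arrays are separate cultures, so the spread of that pair may be technical. A p-value here speaks for the spread among these arrays and no further.

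Respiratory chain genes were higher in selected cardiomyocytes than in sorted cells, across every complex. Against GFP-positive cells of days 7 and 8 (2 arrays against 4), 66 of 87 members rose and 2 fell, Ndufa4l2 and the dimly measured Cox7c, where 17.8% of all 13435 tested genes rose and 25.3% fell (43.1% in all; limma, adjusted p under 0.05). The median member difference was 0.71 on the log2 scale, against -0.13 over all tested genes, and 80 of 87 members were positive. Both cardiomyocyte arrays were above all 4 of these arrays for 74 members (85.1%), where 27% of all genes were. The signal of 61 members in both cardiomyocyte arrays lay above all 16 sorted arrays, which is 70.1% of members, where 19.3% of all genes did so. Against GFP-negative cells of days 7 and 8, which share the cardiomyocyte arrays, 49 members rose and 4 fell, with a median of 0.46, where 20.2% of all genes rose and 25.7% fell (45.9% in all). That count of 53 dropped to 31 when either cardiomyocyte array was left out, while the 68 calls against GFP-positive cells became 53 and 54. In the map of members by array, the cardiomyocyte columns are the ones that stand out.

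**Figure D1:**
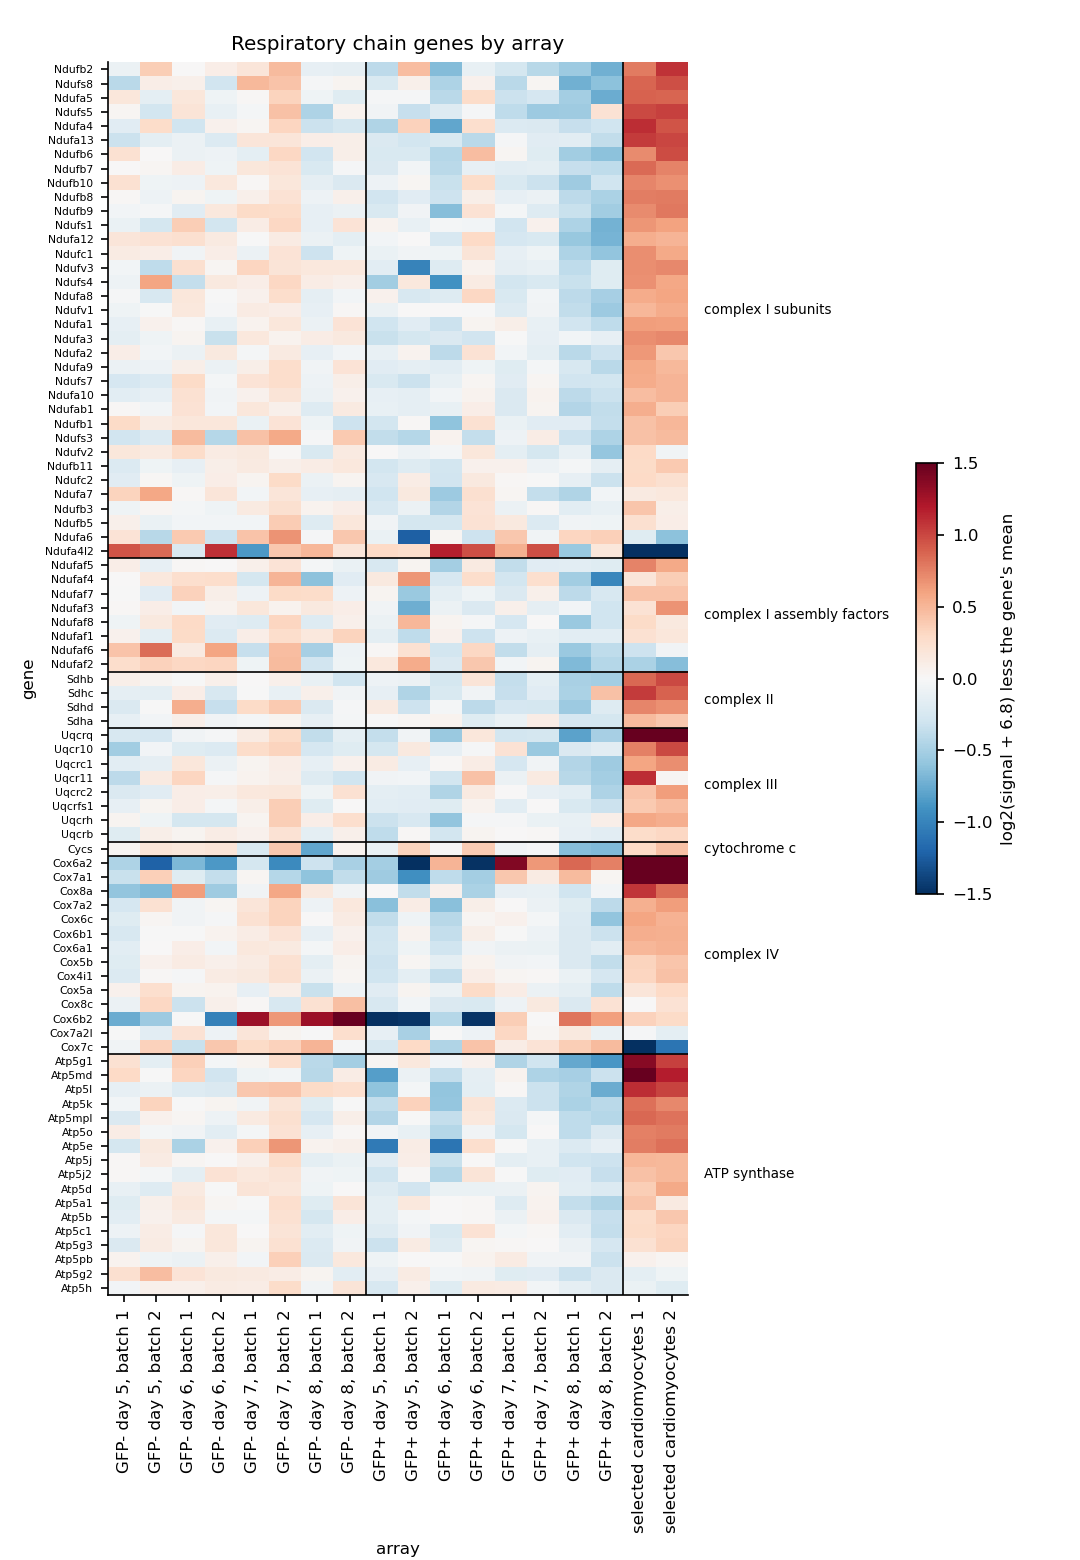
Each row is a tested member and each column an array; colour is log2(signal + 6.8) less the gene's mean over the 18 arrays, with the scale ending at 1.5 in either direction. The 2 selected cardiomyocyte columns are red for most members, while Ndufa4l2 and Cox7c are blue there and Cox6a2 and Cox6b2 also vary among the sorted arrays.

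Within complex I, the entry point for electrons from NADH, the median difference from late GFP-positive cells was 0.82. Of 35 tested genes classed there by symbol, 28 rose, Ndufa4 among them, and the 1 that fell was Ndufa4l2. Ndufb2, an accessory subunit of the membrane arm, had signals of 1282.1 and 1582.4 in the cardiomyocytes and from 448.2 to 1039.6 (median 684.85) in the 16 sorted arrays. The cardiomyocyte arrays were above all sorted arrays, and the difference from late GFP-positive cells was 1.42 (SE 0.23, limma adjusted p = 0.00032). Ndufs8, an iron-sulphur subunit of the electron path, stood at 3978.9 and 4236.2 against 1318.1 to 3032.4 (median 2179.7) in sorted cells, again without overlap (1.34, SE 0.19, limma adjusted p = 0.00012). Ndufa13 had 6298.2 and 6097.6 against 2301.7 to 3457.3 (median 2709.5) and a difference of 1.21 (SE 0.10, limma adjusted p = 3.4e-06). Ndufa5, Ndufs5 and Ndufa1 also rose, by 1.34, 1.32 and 0.80. The 6 subunits that passed in neither direction included Ndufa6, with a difference of -0.66 (limma adjusted p = 0.098), and Ndufb5, with 0.21 (limma adjusted p = 0.35).

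The complex I assembly factors moved less: 3 of 8 rose (Ndufaf5, Ndufaf7 and Ndufaf3) and the median was 0.52. Ndufaf5, a factor needed for an early step of complex I assembly, had 214.7 and 188.9 in cardiomyocytes and 86.3 to 146.2 (median 119.75) in sorted cells, without overlap (0.87, SE 0.19, limma adjusted p = 0.0027). Ndufaf4 had a difference of 0.66 (limma adjusted p = 0.050) and did not pass. Ndufaf2 had a difference of -0.28 from GFP-positive cells (limma adjusted p = 0.29) and fell against GFP-negative cells by 0.57 (limma adjusted p = 0.034). The latter call was lost in 7 of 29 other settings: both scalings, day 8 as the reference, either cardiomyocyte array left out, or the day 7 or day 8 GFP-negative array of batch 2 left out. Whether factors and subunits differed from each other was not tested.

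All 4 subunits of complex II, which is also the succinate dehydrogenase of the citrate cycle, rose in both cardiomyocyte comparisons. Sdhb, its iron-sulphur subunit, measured 3655.5 and 4003.9 in cardiomyocytes and 1411.2 to 2297.4 (median 1898.85) in sorted cells. The groups did not overlap, and the difference from late GFP-positive cells was 1.30 (SE 0.13, limma adjusted p = 8.5e-06). Sdhc and Sdhd, the membrane anchors, rose by 1.10 and 1.02, and Sdha, the flavoprotein, by 0.57 (limma adjusted p = 0.00093). With the mean of all its probe sets in place of the brightest, Sdha gave 0.18 (limma adjusted p = 0.24). Against GFP-negative cells, Sdhd (0.60, limma adjusted p = 0.035) lost its call in 7 of 29 settings, among them the loss of either cardiomyocyte array or of any late GFP-negative array but day 8, batch 2.

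All 8 complex III genes rose against late GFP-positive cells, with a median of 0.75, and 5 of 8 rose against late GFP-negative cells. Uqcrq, a small subunit that binds ubiquinone, had the largest rise of any member against late GFP-positive cells. Its signal was 2160.9 and 2297.8 in cardiomyocytes and 402.1 to 860.5 (median 592.5) in the sorted arrays, a 4.32-fold difference from late GFP-positive cells (log2 2.11, SE 0.18, limma adjusted p = 3.2e-06). The other 3 probe sets of Uqcrq were dim, with mean signals of 16.68, 12.51 and 30.75, and the mean over its 4 probe sets gave 0.64 (limma adjusted p = 0.043). Uqcrc1, a core subunit, rose by 0.96. Uqcrb, with a difference of 0.35 (limma adjusted p = 0.047), was lost in 12 of 29 other settings, with adjusted p up to 0.19. These were no filter, no variance trend, and the loss of either cardiomyocyte array, any late GFP-positive array or any day 6 or day 7 GFP-negative array.

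Cycs, the electron carrier between complexes III and IV, had 5291.3 and 5866.6 in cardiomyocytes against 2500.4 to 5725.3 (median 4341.75) in sorted cells. The ranges overlapped, although the cardiomyocyte arrays lay above all 4 late GFP-positive arrays, which ran from 2720.6 to 4255.1. The difference from those arrays was 0.71 (SE 0.22, limma adjusted p = 0.020), and it did not pass without either cardiomyocyte array, with adjusted p up to 0.14.

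In complex IV, which reduces oxygen, 10 of 14 tested genes rose against late GFP-positive cells, 1 fell, and the median was 0.60. Forms found in most tissues rose modestly, including Cox6a1 by 0.65, Cox6b1 by 0.69, Cox5b by 0.55 and Cox4i1 by 0.45. Cox4i1 did not pass without the second cardiomyocyte array (limma adjusted p = 0.11). Cox7a2l, a relative that takes part in joining complexes III and IV, had -0.18 (limma adjusted p = 0.35). Cox7a2 rose by 0.74 and did not pass without either cardiomyocyte array (adjusted p up to 0.10). Cox8a had a difference of 1.10 (limma adjusted p = 0.0072) on its brightest probe set, of the Affymetrix type x that may cross-hybridise, and -0.12 on its next brightest. Cox7c fell: its signals were 18.0 and 28.3 in cardiomyocytes and 48.1 to 100.7 (median 85.5) in sorted cells, without overlap (-1.64, SE 0.30, limma adjusted p = 0.00085). The annotation used here pairs 2 probe sets with Cox7c. Both were dim, with mean signals of 73.1 and 29.2, and both were lower in cardiomyocytes, so this fall is read from low signals alone.

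Of the ATP synthase genes, 12 of 17 rose against late GFP-positive cells, none fell, and the median was 0.64. Atp5g1 encodes subunit c of the membrane ring, as do Atp5g2 and Atp5g3. Its signals of 2060.7 and 1620.9 in cardiomyocytes lay above 429.1 to 1017.3 (median 774.75) in sorted cells, a 3.47-fold difference from late GFP-positive cells (log2 1.79, SE 0.15, limma adjusted p = 3.3e-06). Atp5g2 (0.11, limma adjusted p = 0.47) and Atp5g3 (0.36, limma adjusted p = 0.057) did not pass. Atp5md and Atp5l, small membrane subunits that join the enzyme into dimers, rose by 1.66 and 1.44. The catalytic subunit Atp5b rose by 0.48 and Atp5a1 by 0.51.

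**Figure D2:**
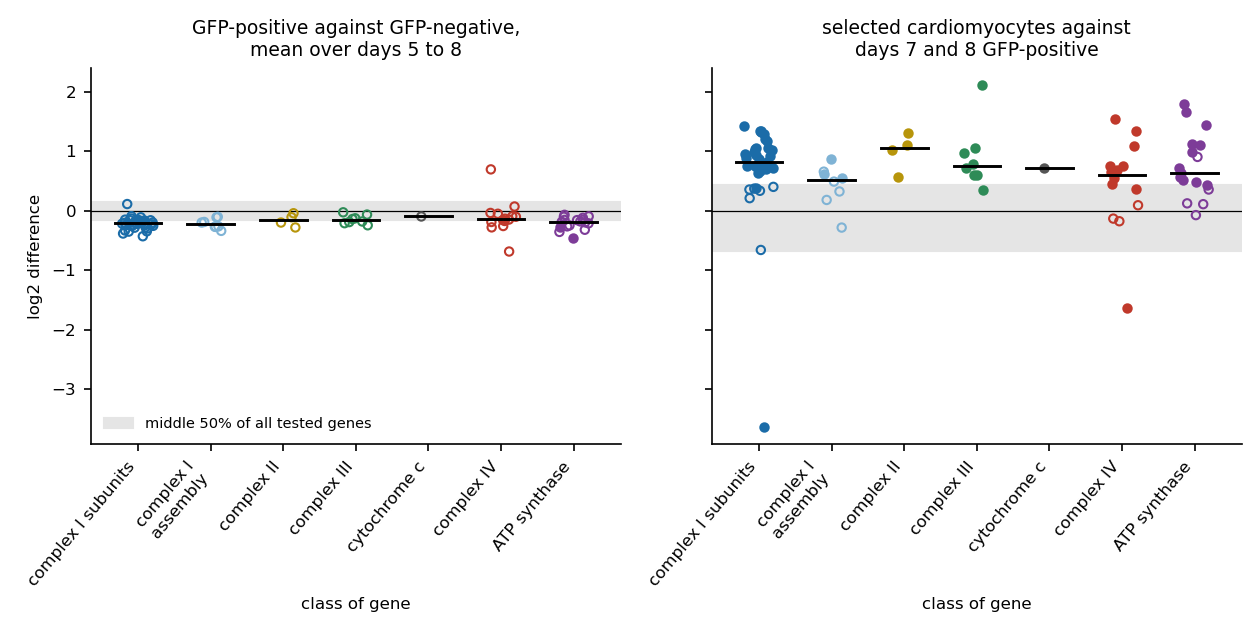
Points are members grouped by complex; the vertical axis is the log2 difference, filled points passed an adjusted p of 0.05 in limma, bars are class medians and the grey band holds the middle 50% of all tested genes. In the comparison with selected cardiomyocytes every class median lies above the band, and in that of GFP-positive with GFP-negative cells 84 of 87 points lie below 0, with 2 filled.

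Other cell type markers moved with the cardiomyocyte comparison. Of 8 fibroblast and matrix genes, 5 were higher in cardiomyocytes than in late GFP-positive cells, with summed signals of 22618.2 to 22678.3 against 2414.4 to 3017.8. Of 6 smooth muscle genes, 4 were higher, with sums of 16914.3 to 17721.4 against 5063.2 to 6874.9. Blood markers were at 137.2 to 158.3 in cardiomyocytes and 24652.2 to 28940 in late GFP-positive cells, with 6 of 7 called lower in cardiomyocytes. All 8 endothelial markers were lower. Of 8 visceral and gut endoderm markers 7 were lower, with sums of 296 to 368.5 against 5655.2 to 15343.9. Blood genes (Hbb-bh1, Hba-x, Hbb-y and Gata1) and 4 endothelial genes (Pecam1, Erg, Sox18 and Plvap) stayed below 22.5 on both cardiomyocyte arrays. The ratio of the 3' to the 5' control probe set of Gapdh, a sign of RNA quality, was 1.622 and 1.579 on the cardiomyocyte arrays and 1.129 to 1.643 over all arrays. The part of these values in the respiratory chain result was not tested.

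Scaling of the arrays affected sizes more than counts here. Setting all arrays to an equal median moved the median of all genes by 0.39 in the comparison with late GFP-positive cells, giving 80 calls and a member median of 1.13, and quantile normalization gave 70 calls and a median of 0.64. Calls over all tested genes were 5784 as deposited, 5516 with equal medians and 5899 after quantile normalization. Relative to the median of all genes, members stood 0.84 higher as deposited, 0.87 with equal medians and 0.64 after quantile normalization.

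Between the sorted fractions few members passed the test, and most had a small negative difference in GFP-positive cells. Over days 5 to 8 (8 arrays against 8), 2 of 87 members fell, none rose, and the background was 0.558% of all genes lower and 2.14% higher (2.7% in all). The median member difference was -0.19, against -0.02 over all genes and -0.07 over the brightest 10% of genes without the members, and 84 of 87 were negative. Before adjustment, 45 members had a limma p under 0.05, a count given here without the share of all genes and so without a background. Within batch 1 the member median was -0.21 and within batch 2 -0.17. Of the members, 12 (13.8%) were lower in the GFP-positive cells of all 8 pairs of day and batch and none was higher in all, where 2.84% of all genes were lower in all and 3.45% higher. The pair of day 6, batch 2 ran the other way, with a median of 0.05 and 59 of 87 members higher. In the other 7 pairs medians ran from -0.36 to -0.09.

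**Figure D3:**
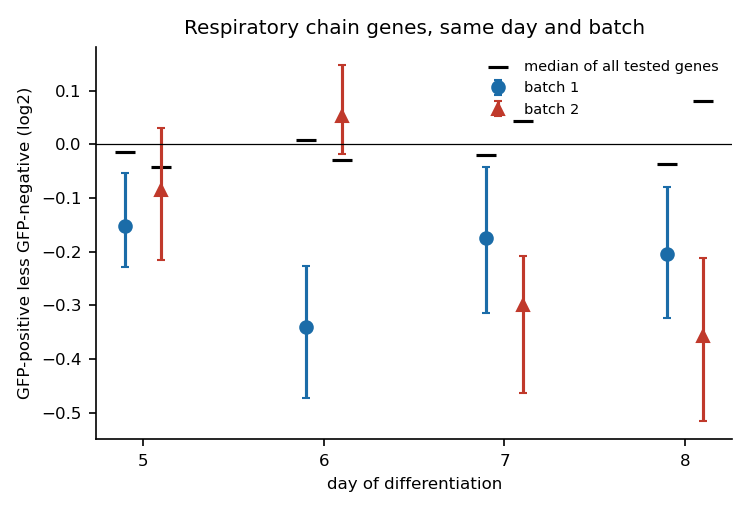
For each day and batch, the point is the median over the 87 tested members of log2 GFP-positive less GFP-negative signal, bars span the middle 50% of members and black dashes mark the median of all tested genes. Of the 8 pairs, 7 have a member median below 0, from -0.36 to -0.09, and the pair of day 6, batch 2 lies at 0.05.

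The members that fell were both ATP synthase genes. Atp5g2 had signals of 1190.8 to 1833.8 (median 1465.0) in the 8 GFP-negative arrays and 1063.8 to 1445.7 (median 1199.55) in the 8 GFP-positive arrays. The ranges overlapped, but within each of the 8 pairs the GFP-positive array was the lower, and the mean difference was -0.27 (SE 0.07, limma adjusted p = 0.047). Atp5l had 375.0 to 588.6 (median 464.1) and 257.4 to 440.5 (median 331.4), lower in 6 of 8 pairs, with a difference of -0.45 (SE 0.10, limma adjusted p = 0.036). With batch as a covariate 5 members fell (Atp5g2, Atp5l, Cox6b2, Ndufa12 and Ndufb7). With each pair of fractions as a block on the sorted arrays 6 did (Atp5g2, Cox6b2, Ndufb2, Ndufb7, Ndufs4 and Ndufv3), so Atp5l passed under batch but not under pairs. Calls over all tested genes grew as well, from 363 in the main fit to 707 with batch and 589 with pairs. Removing single arrays changed the count of calls, to 7 for day 6 GFP-positive of batch 2 (6 lower and 1 higher) and to 4, all lower, for day 5 GFP-positive of batch 2. It was 1 without any of the batch 1 arrays of day 5 GFP-negative, day 5 GFP-positive and day 6 GFP-positive cells, 2 without day 8 GFP-negative of batch 1 or day 6 GFP-negative of batch 2, and 0 without any of the other 11 arrays, both cardiomyocyte arrays among them.

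The gap was examined by time. Day by day, the member median was -0.12 on day 5, -0.14 on day 6, -0.23 on day 7 and -0.26 on day 8. On days 7 and 8 together, 18 members (20.7%) lay lower in all 4 GFP-positive arrays than in all 4 GFP-negative arrays and 1, Cox6a2, lay higher, where 5.14% and 7.92% of all genes did. The change of the gap from days 5 and 6 to days 7 and 8 was called by limma for no member and for 0.149% of all genes. Before adjustment 8 members had a limma p under 0.05, again without the share of all genes beside it. The median of that change was -0.12, but 0.05 in batch 1 and -0.35 in batch 2. In GFP-positive cells 7 of 8 endothelial markers and 3 of 8 endoderm markers were higher and 5 of 8 markers of pluripotent cells were lower than in GFP-negative cells. None of 12 cardiomyocyte markers was called there, with a median difference of 1.38. The part of these cells in the respiratory chain result was not tested.

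In GFP-positive cells, days 7 and 8 differed from days 5 and 6 in 9 members (4 arrays against 4): 3 complex IV genes rose, Cox6a2, Cox6b2 and Cox7a1, and 6 genes of other complexes fell. Of all genes, 11.2% rose and 7.94% fell, beside 3.45% and 6.9% of members. With the values as deposited, members therefore gave no excess of calls over the background. The genes that fell were Atp5g1 by 0.65, Ndufa12 by 0.44, Uqcrc1 by 0.35, Sdhb by 0.32, Ndufc1 by 0.31 and Ndufv1 by 0.27, with limma adjusted p from 0.0074 to 0.049. Sdhb, Ndufc1 and Ndufv1 lost their calls in 20, 17 and 12 of 30 other settings, most of them with a single array left out. Atp5g1 had signals of 811.6, 885.0, 769.2 and 831.3 on days 5 and 6 and 578.7, 645.0, 462.7 and 429.1 on days 7 and 8, without overlap. The member median was -0.07, against 0.09 over all genes, with 0.07 in batch 1 and -0.25 in batch 2. Markers of several cell types rose over the same days: 6 of 12 cardiomyocyte markers (median 2.35), 5 of 8 endoderm markers (median 2.49) and 3 of 8 endothelial markers. The Gapdh ratio of 3' to 5' signal was 1.167 and 1.218 early and 1.643 and 1.543 late in batch 1, and 1.568 and 1.208 early and 1.32 and 1.276 late in batch 2. The part of these values in the change of the members was not tested.

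These counts moved with the setting. With batch as a covariate all 9 calls were kept and 15 members were called, 4 higher and 11 lower. Quantile normalization gave 6 higher and 4 lower, and equal array medians, which moved the median of all genes by -0.39, gave 2 higher and 59 lower. Calls over all tested genes were 2572 as deposited, 2365 after quantile normalization and 4598 with equal array medians. The absence of an excess among members was thus read from the deposited scaling only. Relative to all genes the member median was -0.17 as deposited, -0.21 with equal medians and 0.02 after quantile normalization, so its direction turned. Among GFP-positive arrays, leaving out day 6 of batch 1 gave 15 calls, day 7 of batch 1 or day 6 of batch 2 gave 2, day 5 of batch 2 gave 3, and either day 8 array gave 4.

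In GFP-negative cells 3 members rose from days 5 and 6 to days 7 and 8, Cox6b2, Atp5l and Ndufa13, and none fell, where 7.09% of all genes rose and 5.2% fell. Ndufa13 had 2423.4, 2749.4, 2867.5 and 2635.1 on the earlier days and 3457.3, 3439.7, 3267.5 and 3225.8 on the later days, without overlap (0.33, SE 0.09, limma adjusted p = 0.028). Atp5l rose by 0.50 (limma adjusted p = 0.042). Their calls were lost in 10 and 18 of 30 other settings. The member median was 0.07, with -0.03 in batch 1 and 0.13 in batch 2. Quantile normalization gave 8 higher and 0 lower, and equal array medians 1 and 1. Over all tested genes 1909 and 1664 were called in these settings, and 1652 as deposited. Among GFP-negative arrays, leaving out day 6 of batch 1 gave 5 calls, and leaving out any day 5 or day 8 array, day 7 of batch 1 or day 6 of batch 2 gave 1. Cox6b2 passed in all 30 other settings. Over the same days 6 of 8 fibroblast and matrix markers rose in GFP-negative cells (median 2.86) and 2 of 8 markers of pluripotent cells fell. There the Gapdh ratio was 1.129 and 1.241 early and 1.551 and 1.463 late in batch 1, and 1.282 to 1.367 in batch 2. How far these values bear on the members was not tested.

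The complex IV genes that come in tissue forms had patterns of their own. Cox6a2 is the heart and skeletal muscle form of a regulatory subunit, and Cox6a1 the form of most other tissues. Cox6a2 signal in GFP-positive cells was 52.9 and 16.8 on day 5, 114.3 and 23.7 on day 6, 216.4 and 126.7 on day 7, and 148.3 and 137.1 on day 8, batch 1 before batch 2. In GFP-negative cells it stayed between 29.9 and 64.2 (median 50.2), and in cardiomyocytes it was 537.6 and 390.2. All late GFP-positive arrays lay above all GFP-negative arrays, and both cardiomyocyte arrays above every sorted array. The rise in GFP-positive cells was 3.36-fold (log2 1.75, SE 0.40, limma adjusted p = 0.013), and it did not pass without day 7 GFP-positive of batch 1, day 5 GFP-positive of batch 2 or day 6 GFP-positive of batch 2 (adjusted p up to 0.073). Cardiomyocytes were a further 2.90-fold higher than late GFP-positive cells (log2 1.53, SE 0.49, limma adjusted p = 0.023). That call was lost without either cardiomyocyte array or without day 7 or day 8 GFP-positive of batch 2, with adjusted p up to 0.17. Against late GFP-negative cells the difference was 2.95 (SE 0.49, limma adjusted p = 0.00038), kept in all 29 other settings.

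Cox7a1 is the heart and skeletal muscle partner of Cox7a2. Its signal was 31.6 and 22.7 on day 5, 35.9 and 32.3 on day 6, 66.6 and 53.8 on day 7, and 70.8 and 49.8 on day 8 in GFP-positive cells, 29.8 to 64.6 (median 37.1) in GFP-negative cells, and 170.7 and 153.2 in cardiomyocytes. Late GFP-positive arrays were above early ones without overlap, and cardiomyocytes above all. Cox7a1 rose by 0.84 with time in GFP-positive cells (SE 0.21, limma adjusted p = 0.017), which did not pass after quantile normalization, with equal array medians, or without day 7 or day 8 GFP-positive of batch 1 or day 5 or day 6 GFP-positive of batch 2 (adjusted p up to 0.098). In GFP-negative cells its change was -0.22 (limma adjusted p = 0.53). Cardiomyocytes were higher than late GFP-positive cells by 1.34 (SE 0.25, limma adjusted p = 0.0010).

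Cox6b2, the testis form of a subunit on the outer face of complex IV, rose with time in both fractions and was not highest in cardiomyocytes. In GFP-negative cells it went from 75.6, 87.7, 130.5 and 61.6 on days 5 and 6 to 329.3, 209.9, 328.1 and 382.5 on days 7 and 8 (1.76, SE 0.26, limma adjusted p = 0.0043). In GFP-positive cells it went from 41.9, 43.1, 95.9 and 42.7 to 171.8, 131.8, 234.1 and 204.2 (1.67, SE 0.26, limma adjusted p = 0.0047). Neither fraction's early and late arrays overlapped, and the GFP-positive array was lower in all 8 pairs (mean difference -0.69, limma adjusted p = 0.066, and called with batch as a covariate). Cardiomyocytes, at 168.4 and 161.7, were lower than late GFP-negative cells by 0.86 on the log2 scale (difference -0.86, SE 0.31, limma adjusted p = 0.039). That call was lost with equal array medians, without either cardiomyocyte array, and without day 7 GFP-negative of batch 1 or day 8 GFP-negative of batch 2 (adjusted p up to 0.16).

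Cox8b, the muscle partner of Cox8a, was not tested. Its signal was 1.2 to 18.5 (median 2.95) in sorted arrays and 18.4 and 38.1 in cardiomyocytes, with 1 array above 22.5. Cox4i2, the form of Cox4i1 known from lung, ran from 1.5 to 18.1 over all 18 arrays and Cox7b2 from 0.2 to 14.2, all below 22.5. Ndufb4 had a single probe set, with signals of 3.1 to 17.7.

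**Figure D4:**
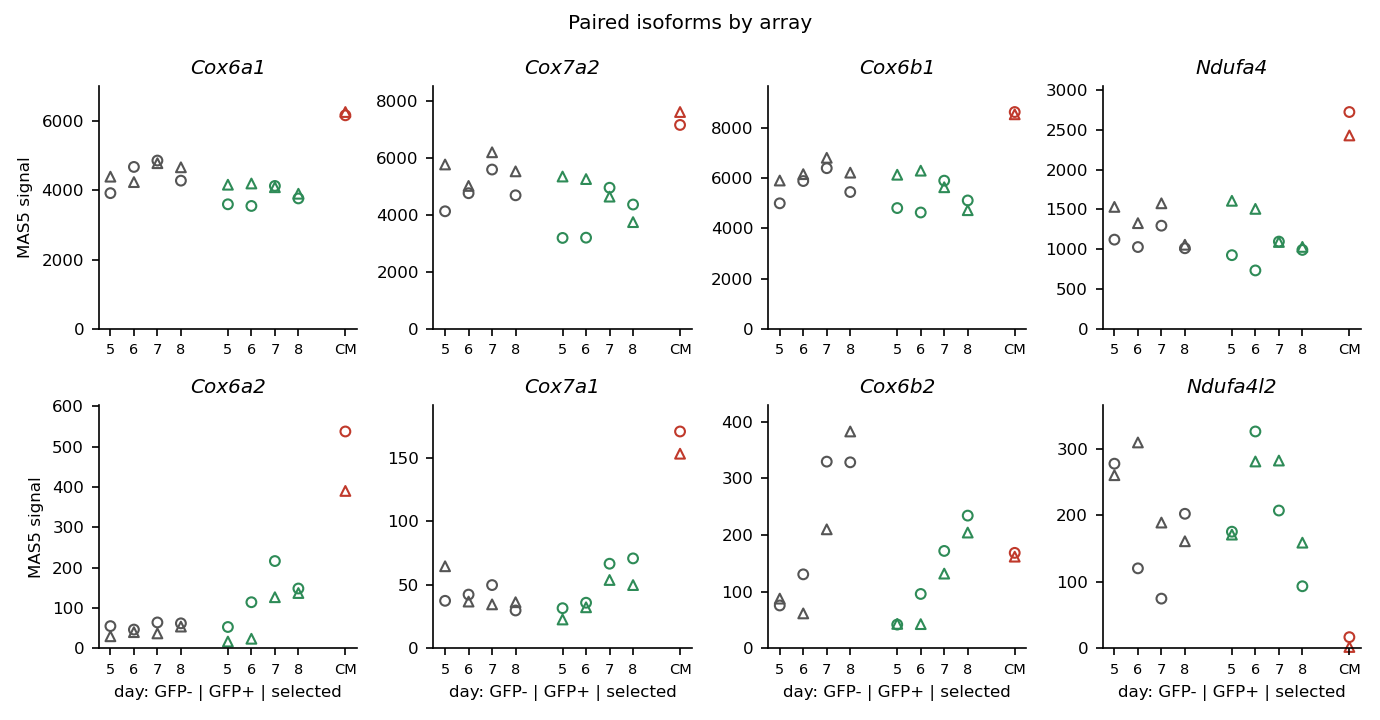
Each panel plots the MAS5 signal of a gene on a linear axis from 0, by day in GFP-negative (grey), GFP-positive (green) and selected (red, CM) cells; circles are batch or replicate 1 and triangles 2. Cox6a2 and Cox7a1 are higher in late GFP-positive cells than in early ones and highest in cardiomyocytes, Cox6b2 is highest in late GFP-negative cells, and Ndufa4l2 is at 16.8 and 2.0 in cardiomyocytes.

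Ndufa4l2, a relative of Ndufa4 known as a target of hypoxia signalling, had the largest fall. Its signal ranged from 74.7 to 325.9 (median 195.6) over the 16 sorted arrays, with no separation of fractions, and was 16.8 and 2.0 in cardiomyocytes, both below 22.5. The difference from late GFP-positive cells was -3.63 (SE 0.44, limma adjusted p = 4.4e-05). Since the low values are near background its size depended on the offset and other settings, from -4.56 to -2.34, and it passed in all 29. Ndufa4, first described in complex I and now placed in complex IV, had 2724.6 and 2430.1 in cardiomyocytes against 734.2 to 1609.1 (median 1094.25) in sorted cells, without overlap (1.29, SE 0.26, limma adjusted p = 0.0018).

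Within-pair changes were compared as differences of log2 changes, without a test. From late GFP-positive cells to cardiomyocytes Cox6a2 changed by 0.89 more than Cox6a1 and Cox7a1 by 0.60 more than Cox7a2. From early to late GFP-positive cells these values were 1.71 and 0.75, and in GFP-negative cells 0.19 and -0.38. Atp5g1 changed by 1.69 more than Atp5g2 between late GFP-positive cells and cardiomyocytes, and by -0.46 relative to it from early to late GFP-positive cells.

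Genes of the surrounding pathway were listed by function. In the comparison of cardiomyocytes with late GFP-positive cells, 13 of 16 tested citrate cycle and pyruvate dehydrogenase genes rose and none fell, with a median of 0.69, close to the members' 0.71. Ogdh, a subunit of the 2-oxoglutarate dehydrogenase complex, rose by 1.51, and Pdhb, of pyruvate dehydrogenase, by 0.87. Of 14 carriers, channels and mitochondrial creatine kinases 10 rose and none fell (median 0.64), among them Ckmt2, the sarcomeric mitochondrial creatine kinase, by 1.91, and Slc25a4, the ADP/ATP carrier of heart, by 0.83. Among 37 assembly factors outside the member rule, 16 rose and 1 fell (median 0.45), with Cox19, a factor for complex IV, at 1.31. Cyc1 and Atpif1, the cytochrome c1 subunit of complex III and the ATP synthase inhibitor, rose by 0.86 and 0.42.

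The mitochondrial ribosome, which translates the subunits encoded in mitochondrial DNA, did not move in step with the members there. Of its 76 genes 19 rose and 10 fell, with a median of 0.09; Mrpl16 rose by 0.97 and Mrps5 fell by 1.00. In late against early GFP-positive cells 22 of the 76 fell and none rose (median -0.31), while in GFP-positive against GFP-negative cells its median was -0.21, with 74 of 76 negative and 2 called lower, Mrps18c and Mrpl23. Of 19 tested regulators of mitochondrial genes, 3 rose and 8 fell in cardiomyocytes against late GFP-positive cells (median -0.21). Ppargc1a and Ppargc1b, coactivators that promote mitochondrial gene expression, rose by 2.47 and 1.67. Nrf1, a factor that binds promoters of respiratory genes, and Gabpb1, the subunit of another such factor that does not itself bind DNA, fell by 2.25 each. Tfam, which packages mitochondrial DNA, fell by 0.65. Whether these lists differed from the members was not tested.

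**Figure D5:**
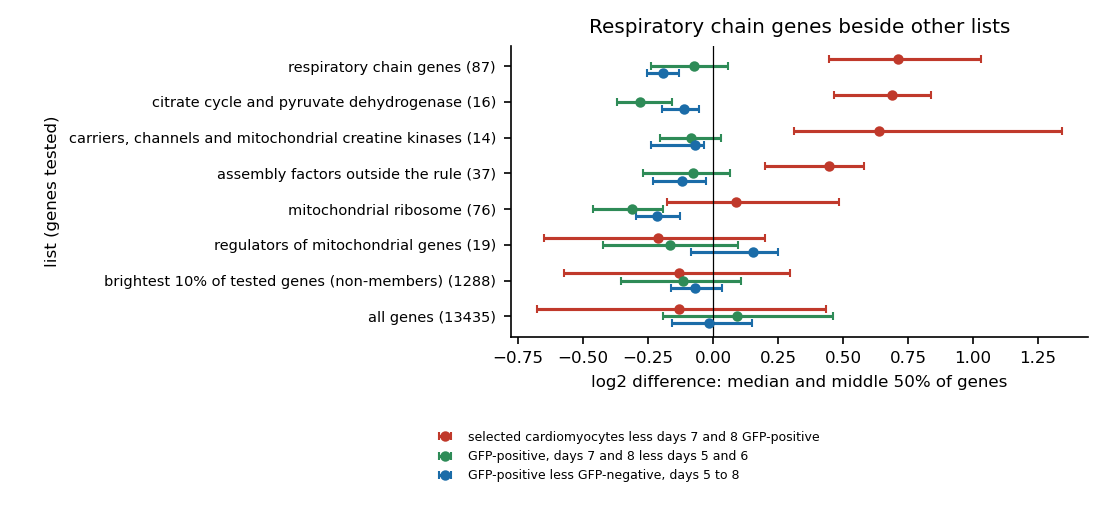
Points are medians and bars the middle 50% of genes of each list for 3 comparisons, on a log2 axis; the number of tested genes stands in parentheses. In cardiomyocytes against late GFP-positive cells the members (0.71), citrate cycle genes (0.69) and carriers (0.64) lie above 0, while the mitochondrial ribosome (0.09) and all genes (-0.13) lie near or below it.

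Promoters of the members were read from RefSeq (GRCm38.p6), the 250 bases before the start, for 75 of the 91 members; 27025 genes had an entry in all. Motifs were searched on both strands. The NRF1 core GCATGCGC stood in 9 members (12.0%) and 2.56% of all genes, the ETS motif CCGGAAG, bound by the factor that holds Gabpb1, in 14 (18.7%) and 7.83%, and the ERR motif AAGGTCA in 5 (6.67%) and 4.7%. A MEF2 motif was in no member and 3.42% of all genes. A match is a description of the letters and not a binding site. In cardiomyocytes against late GFP-positive cells, the median was 0.713 for 9 tested members with the NRF1 core and 0.711 for 63 without. For the ETS motif these medians were 0.700 (14 members) and 0.712 (58), and for the ERR motif 1.368 (4) and 0.709 (68). Any tie between motifs and the rise was not tested. The promoters below are shown because they hold these letters in genes described above (Atp5l, Cycs, Sdhb and Cox6a1) or hold none of them in a muscle form that rose (Cox7a1). Capitals mark the motif matches on either strand.
Atp5l, chr9:44920743-44920992, minus strand, NRF1, ETS and ERR: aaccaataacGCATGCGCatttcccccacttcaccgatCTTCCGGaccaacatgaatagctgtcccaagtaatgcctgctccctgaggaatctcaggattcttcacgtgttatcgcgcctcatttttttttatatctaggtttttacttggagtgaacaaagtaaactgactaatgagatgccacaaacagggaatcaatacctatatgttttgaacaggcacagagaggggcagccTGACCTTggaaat
Cycs, chr6:50566570-50566819, minus strand, NRF1: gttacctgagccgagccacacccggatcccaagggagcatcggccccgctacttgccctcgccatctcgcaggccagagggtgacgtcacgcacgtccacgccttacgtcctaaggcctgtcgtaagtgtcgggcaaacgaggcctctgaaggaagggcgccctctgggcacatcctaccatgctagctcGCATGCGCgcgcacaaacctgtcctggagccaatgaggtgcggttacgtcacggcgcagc
Sdhb, chr4:140961021-140961270, plus strand, NRF1: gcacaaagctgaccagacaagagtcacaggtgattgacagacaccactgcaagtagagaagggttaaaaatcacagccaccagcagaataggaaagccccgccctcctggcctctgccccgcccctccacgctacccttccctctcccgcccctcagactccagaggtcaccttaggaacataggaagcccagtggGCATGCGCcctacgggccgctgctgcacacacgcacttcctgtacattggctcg
Cox6a1, chr5:115348959-115349208, minus strand, NRF1 on both strands and ETS: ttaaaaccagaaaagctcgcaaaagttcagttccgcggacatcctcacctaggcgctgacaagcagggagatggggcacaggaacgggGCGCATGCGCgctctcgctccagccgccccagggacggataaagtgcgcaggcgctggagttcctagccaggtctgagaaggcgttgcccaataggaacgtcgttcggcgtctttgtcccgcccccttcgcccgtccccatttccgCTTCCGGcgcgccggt
Cox7a1, chr7:30183921-30184170, plus strand, no match: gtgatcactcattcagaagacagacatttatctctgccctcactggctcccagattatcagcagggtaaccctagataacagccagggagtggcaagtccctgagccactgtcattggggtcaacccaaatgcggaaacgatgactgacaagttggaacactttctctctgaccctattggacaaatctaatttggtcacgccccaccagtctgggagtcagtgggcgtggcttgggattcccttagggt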

How the data were processed

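RNA of 18 mouse samples was measured on Affymetrix arrays after 2 rounds of amplification from an oligo dT primer, per the labels' protocols. The deposited values are linear MAS5 signal intensities, for which the submitters' processing notes name GCOS 1.4; each array had a trimmed mean of 150, and no detection calls were used. Groups and batches came from sample titles. Of 45101 probe sets, 64 controls, 9160 without a gene symbol and 932 with several were left out, and each of 18193 genes was read from its brightest remaining probe set; 31 members were among the brightest 2% of probe sets, beyond the upper trim of that scaling. Genes at 22.5 or more on at least 2 arrays (13435) were tested on log2(signal + 6.8), the offset being the 25th percentile of all values, with limma 3.58.1 in R 4.3.3 (means of 9 groups, 9 residual degrees of freedom, variance trend, Benjamini-Hochberg adjustment over all tested genes, threshold 0.05). A log2 difference on this scale understates changes of dim genes.

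The number of arrays limits the precision; the 2 arrays of a group correlated at 0.954 to 0.977, and array medians ran from 18.2 to 29.3. The labels give the batch as the source of pairing between fractions and days; batch differences correlated at -0.185 to 0.66 over 28 pairs of groups, 13 of them above 0.1. Members, lists and tests were chosen with earlier results of these data known. Genes named are the members with the largest calls in either direction (up to 10), the brightest of each complex, complex II and Cycs. The tissue forms and up to 4 of each other list were also named. Atp5a1, Atp5b, Ndufa6, Ndufb5, Ndufaf3, Ndufaf5, Ndufaf7, Ndufa13, Uqcrc1, Slc25a4, Ppargc1a and Tfam were added where they illustrate a count or a class, after their values were seen. The procedure was run on simulated data with independent noise, no batch effect, and changes larger than most member differences between the sorted fractions. It cannot show how well such small differences are found. Other offsets, filters, scalings, probe set rules, blocks and left-out arrays were tried.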

Additional observations from a re-analysis of the deposited data

Results flagged for a closer look

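Cox7a1 was picked out from the 87 tested members because its difference between fractions ran in opposite directions at the 2 stages. How many of all tested genes do so was not counted, so this pattern has no background to be set against. Its signals were dim, at 22.7 to 70.8 in GFP-positive and 29.8 to 64.6 in GFP-negative cells, where the floor for testing was 22.5. GFP-positive signal was below GFP-negative signal in all 4 pairs of days 5 and 6 (log2 differences of -0.20, -1.28, -0.20 and -0.16) and above it in all 4 pairs of days 7 and 8 (0.38, 0.55, 1.08 and 0.39). The change of the difference was 1.06 (SE 0.29), and it did not pass the interaction test of limma across all genes (adjusted p = 0.14).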

How the results depend on the processing

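For GFP-positive against GFP-negative cells, main count 2, the number of members called was 1 with an offset of 1, without the filter and with the mean of all probe sets, 4 with the filter doubled, 0 without the variance trend and with sorted arrays only, 5 with batch as a replicate block and 6 with a block by pair. For late against early GFP-positive cells, main count 9, it was 61 with equal array medians (4598 of all tested genes), 5 without the trend and 15 with batch as a block. For late against early GFP-negative cells, main count 3, it was 8 after quantile normalization, 5 with the mean of all probe sets, and 1 without the trend and for day 8 against day 5. The batch block moved no other count by over 1.5 times. It also raised the calls over all tested genes in these 3 comparisons, from 363, 2572 and 1652 to 707, 3351 and 2398. Leaving out 1 array at a time gave 0 to 7, 2 to 15 and 1 to 5 calls in these comparisons, 0 for the interaction, 53 to 74 for cardiomyocytes against late GFP-positive cells and 31 to 59 against late GFP-negative cells. Other settings gave 65 to 80 and 46 to 64 calls for the cardiomyocyte comparisons. The member median of the change in GFP-negative cells turned to -0.0497 with equal array medians and to -0.0001353 for day 8 against day 5, and that in GFP-positive cells to 0.0052 without day 6 GFP-positive replicate 2; over all left-out arrays it ran from -0.1416 to 0.0052. Avoiding probe sets of type x turned Cox8a to -0.12 against GFP-positive and -0.28 against GFP-negative cells; the cause of these turns was not tested beyond the probe set change itself. Over 61 calls of named members, 1574 results kept their call, 207 lost it and 2 reversed. Dim members, among them Cox8b and Cox4i2, are limited by background.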
